A study of Mus musculus with 8 samples.

Results

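Transcripts of 10 circadian clock genes were measured in the fetal mouse brain after prenatal stress. They were taken by name, as the period genes Per1, Per2 and Per3, the cryptochrome genes Cry1 and Cry2, Clock, the REV-ERB genes Nr1d1 and Nr1d2, and the PAR bZIP genes Dbp and Tef. All 10 were found among the 54752 genes of the count tables, and all 10 passed the filter on low counts, which left 17865 genes. The study sequenced mRNA from brains of wild-type C57BL/6 fetuses (C57BL/6Slac in the study's methods) at E15.5. In the stress group, the dam went through chronic unexpected mild stress (CUMS) in pregnancy until the day before collection, and in the control group the dam stayed in the home cage. Each group held 4 brains, from 2 females (F36 and F37 in control, F34 and F35 in stress) and 2 males (M30 and M31 in control, M28 and M29 in stress).

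Some features of the design bear on clock genes in particular. The stress protocol left the lights on overnight on several evenings, among them the evening before collection, and the hour of collection was not given in the sources used here. The study's sample list puts the 4 control brains in 1 litter and the 4 stress brains in another, so that stress, the light of the last night, the litter and any difference in collection time cannot be told apart. The p-values therefore measure the spread between littermates. The list also gives only part of each brain as the tissue used, while the study's text describes whole fetal brains. Totals were between 25320109 and 29105710 counts per library.

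The clock is a loop of transcription and translation that runs in most cells. CLOCK (or its relative NPAS2) pairs with BMAL1, encoded by Arntl, and the pair binds E-box elements to drive the period and cryptochrome genes, whose proteins then return to the nucleus and inhibit that pair. A side loop runs through the nuclear receptors REV-ERB, which repress Arntl, and ROR, which activate it, and the PAR bZIP factors DBP, TEF and HLF pass the rhythm on through D-box elements. In the adult brain the master clock lies in the suprachiasmatic nucleus. In the embryo the molecular loop is known to start only gradually, and the dam's own rhythm is a source of timing for the fetus.

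Letters of the elements of this loop were searched for in the DNA just before the start sites. RefSeq promoter windows on GRCm38.p6 were found for 9 of the 10 genes, with 13 windows in all, and none was found for Per2. In the 250 bases before each start, both strands were searched for the E-box CACGTG, the related E'-box CACGTT, the D-boxes TTATGTAA and TTACGTAA, the cyclic AMP response element TGACGTCA and the ROR element cores TAGGTCA and TGGGTCA. Matches to different motifs shared no bases in these windows. The stretches that held a match follow, 5′ to 3′ on the strand of the gene, with the match in capitals. They show letters only, and whether any factor binds there was not tested.
Per1 (chr11:69098753-69098818, plus strand): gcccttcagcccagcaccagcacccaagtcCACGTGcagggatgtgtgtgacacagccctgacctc
Cry1 (chr10:85185079-85185163, minus strand): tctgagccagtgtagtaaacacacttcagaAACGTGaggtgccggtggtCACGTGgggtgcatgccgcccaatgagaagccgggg
Tef, upstream start (chr15:81802516-81802581, plus strand): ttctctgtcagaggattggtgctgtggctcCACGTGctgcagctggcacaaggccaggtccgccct
Tef, downstream start (chr15:81811246-81811311, plus strand): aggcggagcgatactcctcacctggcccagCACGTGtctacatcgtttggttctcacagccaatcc
Cry2 (chr2:92434200-92434265, minus strand): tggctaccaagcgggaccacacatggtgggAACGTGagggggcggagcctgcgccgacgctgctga
Nr1d1 (chr11:98775378-98775435, minus strand): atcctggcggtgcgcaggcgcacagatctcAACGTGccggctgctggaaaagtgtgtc
Per3 (chr4:151044786-151044900, minus strand): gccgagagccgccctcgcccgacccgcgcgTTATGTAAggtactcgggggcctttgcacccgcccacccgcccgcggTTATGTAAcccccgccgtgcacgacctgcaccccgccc

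The E-box was present in Per1, Cry1 and both Tef windows, beginning between 60 (Cry1) and 166 (Per1) bases before the start. It occurred in 6.02% of all 32851 windows of this length. The E'-box, read here from the other strand as AACGTG, was present in Cry1, Cry2 and Nr1d1 and in 3.85% of all windows. Per3 held 2 copies of the D-box TTATGTAA, 205 and 158 bases before its start, and 0.931% of all windows held a D-box. The other 2 motifs were not met in these windows, which says only that those letters are not in them. The Clock, Nr1d2 and Dbp windows and the downstream Per1 window held none of the letters searched. Both Per1 starts (chr11:69098949 and chr11:69100152) lie inside the span counted for the gene, which begins at 69095217. The DNA before that outer end of Per1 was not searched. Among tested genes with an E-box in such a window, 180 of 1161 (15.504%) were called between stress and control, beside 14.9% of the 12321 tested genes with any window, and among those with a D-box 11 of 100 were called.

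All 10 genes were expressed in every brain, at levels that differed more between genes than between brains. Levels between genes were compared as CPM (counts scaled to the total of the library) per kilobase of the exons of the gene. On this scale Cry1 was the highest, with a median of 9.87 over the 8 brains (range 9.02 to 10.4). Tef followed at a median of 7.44 (7.24 to 7.66), then Cry2 at 6.48 (6.33 to 6.71) and Per1 at 6.10 (5.49 to 6.56). Clock had a median of 4.35 (4.06 to 4.61), Nr1d2 of 3.37 (3.17 to 3.55) and Per2 of 3.01 (2.56 to 3.17). The lowest were Nr1d1 at 2.54 (2.32 to 2.73), Dbp at 1.52 (1.36 to 1.69) and Per3 at 0.572 (0.483 to 0.622). The repressor genes thus lay at both ends of the order, with Cry1 above and Per3 below the others in all 8 brains.

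Of the 9 neighbouring pairs in this order, Cry2 and Per1 overlapped in range, with Cry2 higher in 7 of 8 brains, and Per2 and Nr1d1 overlapped, with Per2 higher in 7 of 8 brains. The other 7 pairs kept their order in all 8 brains. Against all tested genes, the mean level per length of Cry1 was at percentile 69.9 and that of Per3 at percentile 17.7. The exon length joins the exons of all transcripts of a gene, so a gene with long exons used by few transcripts (the joined exons of Clock hold 13727 bases) has its level per length understated.

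**Figure D1:**
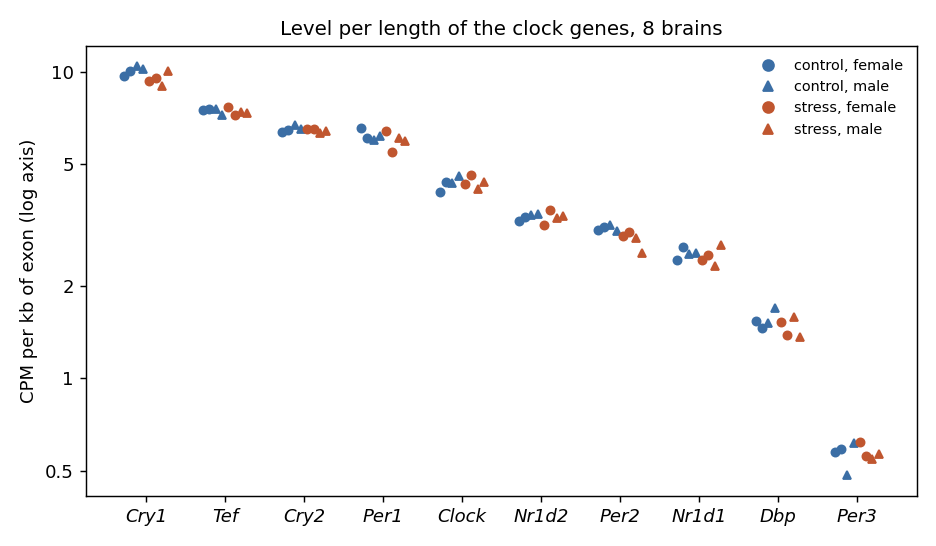
Level per length of the 10 clock genes in 8 brains (y axis, CPM per kilobase of exon, log axis), ordered by median from left to right; colour gives the group and the marker shape the sex. Cry1 lies highest, between 9.02 and 10.4, Per3 lowest, between 0.483 and 0.622, and control and stress points overlap or nearly touch for each gene.

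Stress and control brains were then compared to ask whether the transcripts of the clock loop differed after prenatal stress. By the quasi-likelihood test of edgeR, with sex in the model and a call at an adjusted p-value under 0.05, 0 of the 10 genes were called higher and 0 were called lower in stress, while 6.49% of all tested genes were called higher and 7.27% lower (13.8% in either direction). DESeq2 and limma voom also called 0 of the 10. At an unadjusted p under 0.05 edgeR and limma voom each listed 2 of the 10 (Per2 and Cry1) and DESeq2 0, beside 26.9% of all tested genes by edgeR. The median size of the change, as an absolute log2 fold change, was 0.03 over the 10 genes and 0.08 over all tested genes, and 7 of the 10 lay under the median of all genes. The genes were not matched for counts here, and genes with few counts have a wider spread of fitted changes. Values below are CPM in the order F36, F37, M30, M31 for control and F34, F35, M28, M29 for stress.

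**Figure D2:**
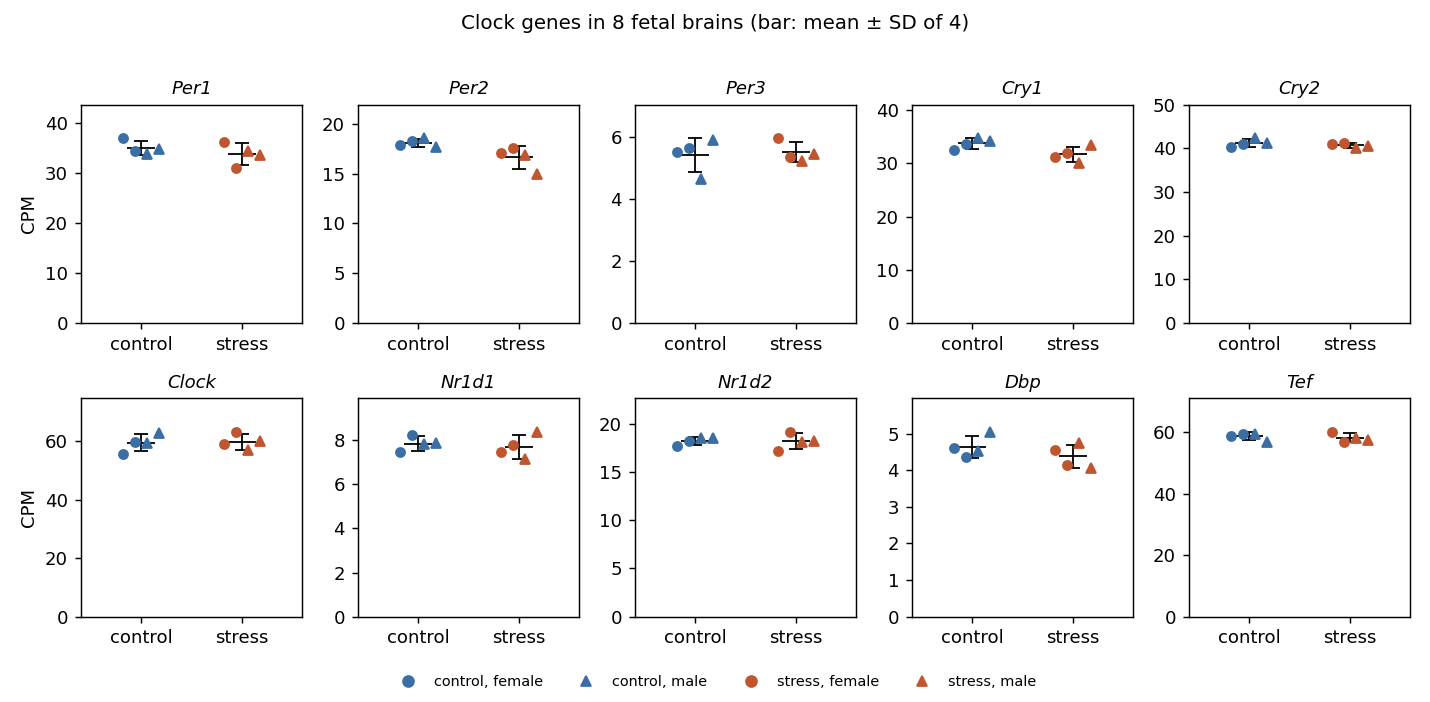
CPM of each of the 10 clock genes in the 4 control and 4 stress brains (y axis from 0, 1 panel per gene); points are brains, circles females and triangles males, and the bar gives the mean ± SD of 4. The groups overlap in every panel but that of Per2, where the stress brains lie between 14.99 and 17.5 and the control brains between 17.7 and 18.6.

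The period proteins are the repressors that accumulate with the cryptochromes and close the loop, and Per1 and Per2 are also induced by light and hormonal signals in adult tissues. Per2 (ENSMUSG00000055866.9, chr1:91415982-91459324, minus strand) measured 17.8, 18.2, 18.6 and 17.7 CPM in control and 17.1, 17.5, 16.9 and 14.99 CPM in stress. All 4 stress brains lay below all 4 control brains, by a narrow margin, and Per2 was the only one of the 10 genes whose groups did not overlap, as was seen in 16.4% of all tested genes. The group means were 18.1 ± 0.402 and 16.6 ± 1.12 CPM (SD, n = 4), a log2 fold change of -0.12 (SE 0.06, 95% interval -0.24 to -0.01). This did not pass the test over all genes (edgeR, adjusted p = 0.156). The male M29 had the lowest stress value, and without it the log2 fold change was -0.08 (edgeR, adjusted p = 0.487).

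Per1 (ENSMUSG00000020893.17, chr11:69095217-69109960, plus strand) measured 36.9, 34.3, 33.8 and 34.7 CPM in control and 36.2, 30.9, 34.4 and 33.5 CPM in stress. The female F35 was the lowest brain and the other 3 stress brains lay within or close to the control range. Its log2 fold change was -0.05 (SE 0.05, edgeR, adjusted p = 0.565), and it was -0.00016 without F35. Per3 (ENSMUSG00000028957.12, chr4:151003652-151044665, minus strand), a period gene that is not needed for the loop to run, measured 5.53, 5.64, 4.64 and 5.91 CPM in control and 5.98, 5.37, 5.23 and 5.46 CPM in stress. The stress values fell inside or just above the control range, which the male M30 alone widened downwards. Its log2 fold change was 0.02 (SE 0.09, edgeR, adjusted p = 0.920). With 128 to 168 counts per brain, its 95% interval ran from -0.17 to 0.21.

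The cryptochromes are the strongest repressors of CLOCK and BMAL1. Cry1 (ENSMUSG00000020038.10, chr10:85131700-85185064, minus strand) measured 32.4, 33.7, 34.8 and 34.2 CPM in control and 31.3, 32.0, 30.1 and 33.5 CPM in stress. Of the stress brains, 3 lay below every control brain and M29 lay inside the control range. The means were 33.8 ± 1.01 and 31.7 ± 1.42 CPM (SD, n = 4), a log2 fold change of -0.09 (SE 0.04, 95% interval -0.18 to -0.0024), which did not pass the test (edgeR, adjusted p = 0.174). Cry2 (ENSMUSG00000068742.11, chr2:92403646-92434043, minus strand) measured 40.3, 40.9, 42.4 and 41.2 CPM in control and 41.0, 41.2, 40.0 and 40.6 CPM in stress. These 8 values were the closest together of the 10 genes, with a coefficient of variation of 1.79%. The log2 fold change of Cry2 was -0.02 (SE 0.04, edgeR, adjusted p = 0.814).

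Clock (ENSMUSG00000029238.11, chr5:76209868-76304792, minus strand), the activator, measured 55.7, 59.9, 59.5 and 63.0 CPM in control and 59.0, 63.3, 56.95 and 59.97 CPM in stress. Both groups spanned nearly the same range, and the log2 fold change was 0.01 (SE 0.04, edgeR, adjusted p = 0.949). The means were 59.5 ± 2.97 and 59.8 ± 2.65 CPM (SD, n = 4). Clock had the most counts of the 10 genes, up to 1791 in a brain, and its 95% interval of -0.08 to 0.09 corresponds to a ratio of stress to control between 0.948 and 1.06.

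The REV-ERB genes encode heme-binding nuclear receptors that repress Arntl. Nr1d1 (ENSMUSG00000020889.11, chr11:98767932-98775333, minus strand) measured 7.46, 8.25, 7.84 and 7.87 CPM in control and 7.46, 7.78, 7.15 and 8.39 CPM in stress. Nr1d2 (ENSMUSG00000021775.11, chr14:18204054-18239127, minus strand) measured 17.7, 18.2, 18.5 and 18.6 CPM in control and 17.2, 19.2, 18.1 and 18.3 CPM in stress. In both genes the stress brains spread to either side of the control brains. The log2 fold change was -0.03 (SE 0.08, edgeR, adjusted p = 0.858) for Nr1d1 and -0.01 (SE 0.05, edgeR, adjusted p = 0.958) for Nr1d2. Of the exon bases of Nr1d1, 8.55% are shared with Thra on the opposite strand, and with the counting options in the file headers, which set no strand and no counting to several genes, read pairs over exons of both genes are left out of the count of each.

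Dbp and Tef encode transcription factors that bind D-boxes, and Dbp is one of the transcripts with the widest daily swing in adult tissues. Dbp (ENSMUSG00000059824.12, chr7:45705088-45710203, plus strand) measured 4.62, 4.37, 4.53 and 5.06 CPM in control and 4.56, 4.15, 4.74 and 4.08 CPM in stress. Both the highest brain (M31, control) and the lowest brain (M29, stress) were males, and the groups overlapped. Its log2 fold change was -0.08 (SE 0.10, 95% interval -0.29 to 0.12, edgeR, adjusted p = 0.645), the widest interval of the 10 genes, on 105 to 144 counts per brain, and it was -0.03 without stress M29 (edgeR, adjusted p = 0.900). Sphk2, on the opposite strand, shares 18.0% of the exon bases of Dbp, where read pairs are likewise left out. Tef (ENSMUSG00000022389.15, chr15:81802421-81826863, plus strand) measured 59.0, 59.5, 59.6 and 56.98 CPM in control and 60.3, 57.004, 58.1 and 57.6 CPM in stress. Tef had a log2 fold change of -0.01 (SE 0.03, edgeR, adjusted p = 0.863), with the narrowest interval, -0.08 to 0.06.

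Across the 10 genes, 8 had a fitted value lower in stress and 2 higher, beside 49.4% of all tested genes fitted lower. Taking the 95% intervals of the 10 genes together, the ratio of stress to control had no lower bound under 0.819 (Dbp) and no upper bound over 1.16 (Per3). Per2 and Cry1, whose intervals lay below 0, were still not called over all genes. The spread over the 8 brains was compared with that from counting alone, which is set by the mean count. In 6 of the 10 genes (Per3, Cry2, Nr1d1, Nr1d2, Dbp and Tef) the coefficient of variation was below the counting value, for example 7.06% for Dbp beside 8.92% from counting. In Per1, Per2, Cry1 and Clock it was above, for example 5.31% for Per1 beside 3.23%.

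**Figure D3:**
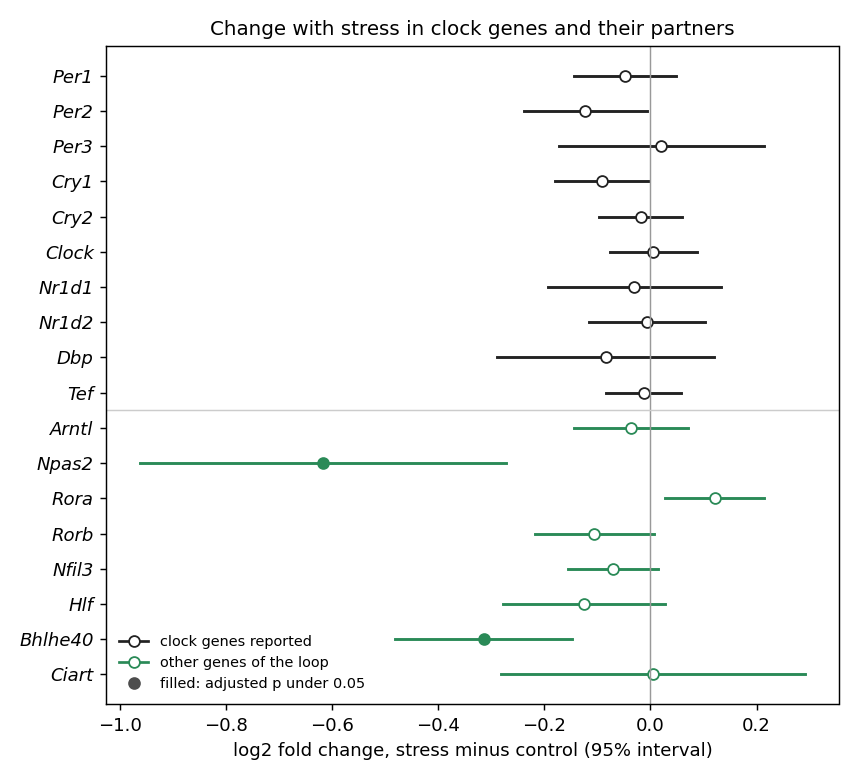
Log2 fold change of stress minus control (x axis) with its 95% interval for the 10 clock genes (black) and 8 other genes of the loop (green); filled points were called at an adjusted p-value under 0.05. The 10 clock genes lie between -0.12 and 0.02 with open points, and Npas2 at -0.62 and Bhlhe40 at -0.31 are filled.

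The other transcription factors of the loop were read in the same way. Of 11 such partners, all tested, edgeR called 0 higher and 2 lower in stress, Npas2 and Bhlhe40, beside 6.49% and 7.27% of all tested genes (DESeq2 called 1 of the 11), with a median log2 fold change of -0.11 over the 11 beside 0.00 over all tested genes. Npas2, which can take the place of CLOCK as partner of BMAL1, measured 2.15, 1.69, 2.104 and 2.57 CPM in control and 1.67, 1.42, 1.15 and 1.31 CPM in stress. The groups met closely, between the control female F37 and the stress female F34, without overlap, as was seen in 16.4% of all tested genes. The log2 fold change was -0.62 (SE 0.17, edgeR, adjusted p = 0.0136), on 33 to 73 counts per brain. The call was lost with DESeq2 (adjusted p = 0.0607) and with edgeR when control M31 (adjusted p = 0.0769), stress M28 (0.0652) or stress M29 (0.0505) was left out. The log2 fold change of Npas2 was -0.31 (SE 0.23) in females and -0.92 (SE 0.22) in males. This difference did not pass the interaction test (edgeR, adjusted p = 0.808).

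Bhlhe40, whose protein DEC1 binds E-boxes and represses clock genes, measured 9.79, 9.03, 8.85 and 8.15 CPM in control and 7.06, 6.79, 6.97 and 7.91 CPM in stress. Every stress brain lay below every control brain, while 16.4% of all tested genes had groups apart in either direction. The log2 fold change was -0.31 (SE 0.08, edgeR, adjusted p = 0.00974). This call was kept in all 15 alternative settings. The log2 fold change of Bhlhe40 was -0.44 (SE 0.11) in females and -0.19 (SE 0.11) in males, a difference that did not pass the interaction test (edgeR, adjusted p = 0.840).

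Among the partners that did not pass the test, Arntl, the gene of BMAL1, measured 19.7 ± 0.784 CPM in control and 19.2 ± 0.756 CPM in stress (SD, n = 4), a log2 fold change of -0.04 (SE 0.05, edgeR, adjusted p = 0.709). The ROR genes went in different directions. Rora was higher in all 4 stress brains (31.6 to 34.03 CPM) than in all 4 control brains (27.9 to 31.1 CPM). Groups were apart, in either direction, in 16.4% of all tested genes. The log2 fold change of Rora was 0.12 (SE 0.05) and did not pass (edgeR, adjusted p = 0.0748). Rorb had a log2 fold change of -0.11 (SE 0.05, edgeR, adjusted p = 0.217) and passed only when stress F35 was left out (-0.17, adjusted p = 0.0315). Nfil3, the D-box repressor that opposes DBP, had -0.07 (SE 0.04), Hlf, the third PAR bZIP gene, -0.13 (SE 0.07), and Ciart, a repressor of CLOCK and BMAL1, 0.01 (SE 0.14).

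**Figure D4:**
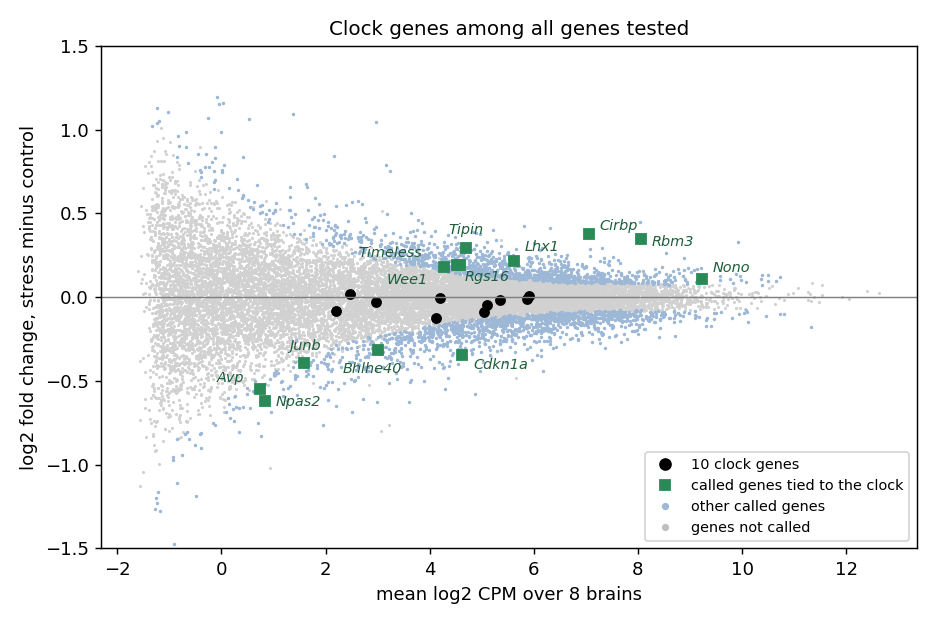
Log2 fold change of stress minus control (y axis) against mean log2 CPM over 8 brains (x axis) for the genes tested; 5 genes beyond 1.5 in size are not drawn. The 10 clock genes (black) lie between -0.12 and 0.02 near the zero line among genes not called (grey), while the 13 genes of the clock-related lists that were called (green, named) lie from -0.62 (Npas2) to 0.38 (Cirbp).

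Genes that act on clock proteins or lie beside the loop were described by the lists chosen for this purpose. Of 13 kinases, ubiquitin ligase parts and other modifiers of clock proteins, such as casein kinase 1, edgeR called 0 (DESeq2 called 0 and limma voom 0). By edgeR 5 of the 13 had an unadjusted p under 0.05, beside 26.9% of all tested genes. Of 11 cofactors (median log2 fold change 0.07), 3 were called higher and 0 lower by each of edgeR, DESeq2 and limma voom. Over all tested genes edgeR called 6.49% higher and 7.27% lower. Tipin rose from 23.5 ± 0.639 to 28.7 ± 0.470 CPM (SD, n = 4), a log2 fold change of 0.29 (SE 0.04, edgeR, adjusted p = 8.06e-05). Its partner Timeless, named after a fly clock gene but best known in mammals at the replication fork, rose by a log2 fold change of 0.19 (SE 0.05, edgeR, adjusted p = 0.00654). Nono, an RNA-binding protein found with PER, rose by 0.11 (SE 0.03, edgeR, adjusted p = 0.00524).

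Of 5 genes known as outputs of the clock, edgeR called 1 higher and 1 lower, beside 6.49% and 7.27% of all tested genes. Cdkn1a, which encodes the cell cycle inhibitor p21, fell from 27.8 ± 1.67 to 21.9 ± 0.942 CPM (SD, n = 4), a log2 fold change of -0.34 (SE 0.05, edgeR, adjusted p = 5.86e-05). Wee1, a kinase that holds back mitosis, rose by 0.18 (SE 0.06, edgeR, adjusted p = 0.0324), a call lost with DESeq2, without sex in the model and when control F37, M30 or M31 or stress M29 was left out (adjusted p up to 0.192). Beside Tipin, Timeless, Wee1 and Cdkn1a, the markers of dividing cells moved with the group. Of 6 markers, 5 were called higher in stress, beside 6.49% of all tested genes. The summed level of the 6 was 416.5 to 450.7 CPM in control and 471.7 to 546.1 CPM in stress. The part of dividing cells in these changes was not tested.

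Some markers of other cell types were called as well, while the summed levels of neurons, radial glia and blood overlapped between the groups. Over all tested genes edgeR called 6.49% higher and 7.27% lower. Of 7 neuronal markers 4 were called lower, with a summed level of 6356 to 6608 CPM in control and 6266 to 6543 CPM in stress. Dcx was fitted higher and not called (log2 fold change 0.06). Of 7 radial glia markers 4 were called higher (1518 to 1609 and 1549 to 1676 CPM). Hes5 (-0.10), Fabp7 (-0.02) and Slc1a3 (-0.04) were fitted lower and not called. Of 5 endothelial markers 3 were called lower (136.3 to 151.1 and 120.3 to 128.9 CPM), and of 6 blood markers 1 was called lower (358.8 to 406.3 and 361.3 to 376.0 CPM). Of 5 choroid plexus markers 2 were called higher by edgeR and 0 by DESeq2, and the sum was uneven between brains (2.43 to 10.5 and 2.59 to 33.5 CPM), as it was for the meninges, with 2 of 4 tested markers called higher by edgeR and 0 by DESeq2 (11.2 to 20.5 and 14.3 to 42.0 CPM). Of 8 markers from outside the brain, Gh and Prl were at 0 in all brains, 3 were tested and 0 were called, and the sum was 2.92 to 4.44 and 2.47 to 4.07 CPM. Markers of neurons and radial glia were thus abundant in these libraries, and transcripts of the hormone genes Gh and Prl were absent. Gh and Prl alone cannot show whether pituitary tissue was included. In such bulk samples fewer cells of a type and less RNA per cell cannot be told apart, and what part the cell types had in Npas2, Bhlhe40 or the 10 clock genes was not tested.

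Genes tied to the suprachiasmatic nucleus and to the inputs of the clock were read next. These bulk samples do not resolve brain regions, so the values cannot be assigned to that nucleus. Of 10 genes of the suprachiasmatic nucleus, 9 were tested, and edgeR called 2 higher and 1 lower, beside 6.49% and 7.27% of all tested genes, while DESeq2 called 1 higher and 0 lower. The median log2 fold change of the 9 was -0.22. Among those not called, named after their values were seen, Vip had -0.32 (SE 0.33), Prok2 -0.59 (SE 0.26), Six6 -0.35 (SE 0.18), Grp -0.22 (SE 0.16), Prokr2 -0.07 (SE 0.07) and Vipr2 0.20 (SE 0.15). Counts were few for Vip (4 to 16 per brain) and Prok2 (15 to 33 per brain). Avp, which encodes vasopressin, measured 1.67, 2.43, 1.995 and 1.69 CPM in control and 1.12, 1.38, 1.39 and 1.42 CPM in stress. Its groups did not overlap, as was seen in 16.4% of all tested genes. The log2 fold change of Avp was -0.55 (SE 0.17, edgeR, adjusted p = 0.0297), on 31 to 69 counts per brain. This call was lost with DESeq2 and when control F37, control M30 or stress F34 was left out (adjusted p up to 0.168). Lhx1, a transcription factor also made in other brain regions, rose by 0.21 (SE 0.05, edgeR, adjusted p = 0.00759), a call lost with DESeq2 (adjusted p = 0.105) and without stress F35 (0.0511) or stress M29 (0.0641, log2 fold change 0.15). Rgs16, a regulator of G-protein signalling that shares 10.1% of its exon bases with an antisense gene, rose by 0.19 (SE 0.05, edgeR, adjusted p = 0.0118), a call lost without control M31 or stress F34 (adjusted p up to 0.0648).

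The list of the input side of the clock held 11 genes (immediate early genes, glucocorticoid targets and genes that respond to temperature). Of these 11, edgeR called 2 higher and 1 lower, beside 6.49% and 7.27% of all tested genes. Those of the list called higher were the temperature-responsive pair. Cirbp, a cold-inducible RNA-binding protein that binds transcripts of clock genes, measured 115.5, 122.8, 115.8 and 113.6 CPM in control and 152.0, 155.5, 144.5 and 155.5 CPM in stress. The groups were far apart, with a log2 fold change of 0.38 (SE 0.03, edgeR, adjusted p = 1.46e-08). Rbm3, its close relative, rose from 236.7 ± 9.52 to 301.1 ± 18.1 CPM (SD, n = 4), a log2 fold change of 0.35 (SE 0.04, edgeR, adjusted p = 8.51e-07). Both calls were kept in all 15 alternative settings.

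Junb, an immediate early gene, had a log2 fold change of -0.39 (SE 0.13, edgeR, adjusted p = 0.0415), and this call was lost in 7 of 15 alternative settings, with DESeq2 and in 6 of the 8 fits that each left out 1 brain (without control F36, F37 or M30, or stress F34, M28 or M29, adjusted p up to 0.194). The glucocorticoid targets Fkbp5, Tsc22d3, Sgk1 and Klf9, named here after their values were seen, did not pass the test, with log2 fold changes of -0.01, -0.04, -0.04 and -0.32 (SE 0.03, 0.05, 0.05 and 0.13).

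The sexes were compared to ask whether clock genes differed between female and male brains. None of the 10 genes was called by edgeR, DESeq2 or limma voom (0 of 10), and 0 of 10 had an unadjusted p under 0.05 by any of the 3, while edgeR called 0.0896% of all tested genes. The log2 fold changes of female minus male brains lay between -0.06 (Dbp, 4.43 and 4.60 CPM in females and males) and 0.08 (Per3, 5.63 and 5.31 CPM). Per2 had the smallest p of the 10, with a log2 fold change of 0.05 (SE 0.06, edgeR, adjusted p = 0.927).

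Whether the change with stress differed between the sexes was tested by the interaction of sex and stress, which called 0 of the 10 genes with each of the 3 tools, with 0 of 10 at an unadjusted p under 0.05, beside 0.0056% of all tested genes called by edgeR. Clock came closest. Its log2 fold change with stress was 0.08 (SE 0.05) in females and -0.07 (SE 0.05) in males, and the difference of 0.15 (SE 0.07) did not pass (edgeR, adjusted p = 0.799). Per2 had -0.06 (SE 0.08) in females and -0.19 (SE 0.08) in males, a difference of 0.13 (SE 0.11, edgeR, adjusted p = 0.897). Cry1 had -0.06 (SE 0.06) and -0.12 (SE 0.06), a difference of 0.05 (SE 0.09).

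**Figure D5:**
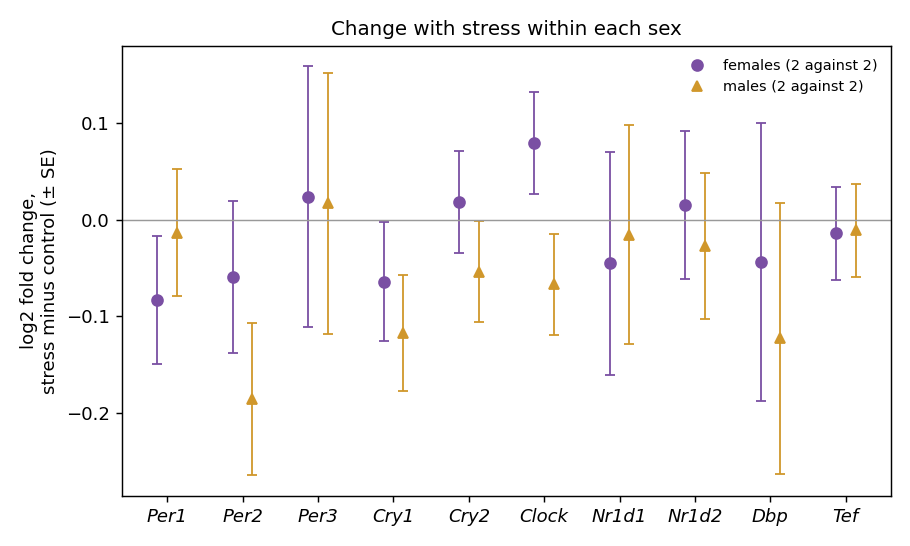
Log2 fold change of stress minus control (y axis, ± SE) for the 10 clock genes in females (circles) and males (triangles), 2 brains against 2 in each sex, from 1 fit over 8 brains. Values lie between -0.19 (Per2, males) and 0.08 (Clock, females), and the bars of the sexes overlap for each gene but Clock.

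For Per2, the gene with the smallest p of the 10, the 5 tested genes with the most alike pattern were found by Pearson's r of log2 CPM over the 8 brains. They were Prrt3 (r = 0.981), Kcns2 (0.967), Sel1l, Slc9a5 and Ushbp1 (each 0.958). These values describe 8 points that share the difference between groups, and they were the highest of 17865 genes. Of the 5, Kcns2, a potassium channel subunit, fell from 10.3 to 8.28 CPM (log2 fold change -0.31, SE 0.08, edgeR, adjusted p = 0.0085), and Slc9a5, a sodium/hydrogen exchanger, fell from 45.5 to 41.4 CPM (-0.14, SE 0.04, edgeR, adjusted p = 0.0361). Prrt3 (-0.17), Sel1l (-0.07) and Ushbp1 (-0.18) did not pass.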

How the data were processed

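RNA was captured with oligo(dT) beads and 1 library was made per brain. Reads were trimmed by the authors (Trim Galore) and mapped to mm10 by TopHat2 (2.1.1). Genes of the GENCODE annotation were counted by featureCounts (1.6.3). The values deposited by the authors are raw counts per gene, with no normalization. Per the file headers, no option was set for strand or for counting to several genes, so that read pairs over exons of more than 1 gene were not counted. Symbols were matched by identifier for 54723 of 54752 genes in GENCODE vM21, where all 10 clock genes keep their coordinates. Coordinates are those of the files.

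The quasi-likelihood test of edgeR 4.0.16 (glmQLFit, glmQLFTest; limma 3.58.1 and R 4.3.3) was run on these counts after TMM scaling, on genes that passed filterByExpr (minimum count 10 in a group's brains), with terms for condition and sex. P-values were adjusted over all 17865 genes by the Benjamini-Hochberg method. Intervals use the t distribution. A standard error is the size of the log2 fold change divided by the root of F. CPM uses TMM-scaled totals, and log2 CPM a prior count of 2. A second model of all 8 brains added the product of sex and stress. DESeq2 (1.42.0, Wald test), limma voom, other normalizations, other filters, a model without sex and leaving out each brain were the alternatives. The fits were tested on simulated data.

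The 10 genes and all lists were chosen with earlier results of these data known. The rule for naming took the 10 genes, each called gene of the lists of clock partners, modifiers, cofactors, outputs, suprachiasmatic nucleus and inputs, 8 partners whatever their result, and the 5 genes most like the clock gene with the smallest p. Samples were grouped by their labels. The study's other animals, the published single-cell data it used and the PCR were not analysed here.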

Additional observations from a re-analysis of the deposited data

Results flagged for a closer look

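In a check for single brains far from the other 3 of their group, over 58 groups of 4 brains (10 clock genes and 19 other named genes), 3 brains stood out, and chance alone would mark about 5% of groups. None concerned the 10 clock genes. The control female F36 had 28.7 CPM of Rorb, beside 25.0 to 25.6 CPM in the other control brains. The stress male M29 had 29.4 CPM of Tipin, beside 28.4 to 28.5 CPM in the other stress brains. The stress female F34 had 1.12 CPM of Avp, beside 1.38 to 1.42 CPM in the other stress brains.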

How the results depend on the processing

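The number of clock genes called with stress stayed at 0 of 10 in each direction under every alternative run. Between the sexes and in the interaction it also stayed at 0 of 10 in every alternative but the model without sex, which tests neither. Log2 fold changes close to 0 changed sign without being called. Among the 10 genes this happened only when 1 brain was left out, in Clock (-0.031 to 0.038 over the 8 such fits), Nr1d1 (-0.082 to 0.013), Nr1d2 (-0.044 to 0.020), Per3 (-0.047 to 0.093) and Tef (-0.029 to 0.0015). Ciart changed sign with limma voom (-0.0016), without a filter (-4.4e-05) and when brains were left out (-0.080 to 0.099). Leaving out each brain moved Per2 between -0.14 and -0.08, Cry1 between -0.12 and -0.06, Dbp between -0.12 and -0.03, Per1 between -0.09 and -0.00016 and Cry2 between -0.03 and -0.0048. Over all genes, 1160 were called higher and 1298 lower, against 748 and 911 with DESeq2 and 736 and 854 without stress M29, a fit on 7 brains. The settings for the named genes other than the 10 were added after seeing the data. Among the 10 genes, counts limit Per3 and Dbp most, with at most 168 per brain. No paired analysis was possible because the groups share no replicate numbers.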
